A study of Mus musculus with 74 samples.

Results

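The first hour of the TGF-β response was examined in 2 wild-type mouse cell lines, labelled S2WT and S3WT. It was covered by 12 of the 74 dual-channel cDNA arrays of the study, chosen by line and time from their titles: 3 arrays of S2WT at 1 h, 3 of S2WT at 0 h, 3 of S3WT at 1 h and 3 of S3WT at 0 h. On a 1 h array, channel 2 held RNA of the line given TGF-β for 1 h and channel 1 RNA of the same line without it. On a 0 h array both channels held RNA without TGF-β, so that the 0 h arrays gave the background ratio of each probe. No agent other than TGF-β is named for these groups; dose, strain, age and tissue of origin do not appear in the labels used. The labels do not expand S2 and S3. They are Smad2 and Smad3 in the publication with this design, in which the cells were mouse embryonic fibroblasts and each wild-type line was the partner of a knockout line. Nothing in the labels says whether the 3 arrays of a group came from separate cultures, so p-values here cover the variation among these arrays alone, part or all of which could be technical.

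TGF-β binds a receptor serine/threonine kinase pair, which phosphorylates Smad2 and Smad3. These join Smad4, move into the nucleus and act at promoters and enhancers together with other factors. Among the best known early targets are genes of the pathway's own inhibitors, such as Smad7 and the co-repressors SnoN (Skil) and TGIF (Tgif1), together with transcription factors and secreted ligands that carry the response further; TGF-β also activates MAP kinases.

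Each value is the log2 ratio between the 2 channels, centred on its array's median, so that each change is relative to the median probe. The direction, TGF-β over no TGF-β, is likely but is not stated. Between 8068 and 8672 of the 8976 probes had a value on an array, and 8292 were tested. Replicates were only weakly alike, with Pearson correlations of 0.00896 to 0.312 between arrays of a group, across probes. The S2WT 1 h replicate 3 had the fewest values and the most ratios at the ceiling of the scale (40, against 5 to 31 on the other 11 arrays). A ratio within an array shows neither a cell type nor a level: of the fibroblast marker list 4 of 10 genes were tested, and their 8 probes had changes from -0.50 to 0.90 on the log2 scale.

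The 3 named genes with the smallest p-values among those higher at 1 h are known as early TGF-β targets. Tgif1, a homeodomain co-repressor that binds Smads, was higher by 0.94 on the log2 scale, Hbegf, a membrane-anchored ligand of the EGF receptor, by 1.09, and Bhlhe40, a basic helix-loop-helix repressor linked to the circadian clock, by 1.20. Skil, Ier2, Gadd45b, Klf10, Noct and Nr4a1 were higher by 0.71 to 1.47. In bulk RNA, a change per cell and a change in the share of cells expressing a gene cannot be told apart. With the 12 arrays alone none of the 8292 probes passed an adjusted p of 0.05 by limma in either direction (0% called), and 311 had an unadjusted p under 0.05 (3.75%), of which 187 (2.26%) were higher and 124 (1.5%) lower at 1 h. Other fits made calls, all of them higher. There were 6 probes (0.0724%) when the group means were fitted over all 74 arrays and 4 (0.0482%) with arrays weighted by quality. Against pooled 0 h arrays there were 4 (0.0524% of 7638 probes). That pool joined the 0 h arrays of S2WT, S3WT, the knockout lines S2KO and S3KO, and arrays titled S2WT against U0126, a MEK inhibitor. This fit had no term for line. All 1 h arrays with a value lay above all 0 h arrays of their line for 50 of the tested probes (0.603%), and below them for 33 (0.398%). A group of 2 values is more easily free of overlap than a group of 3. Leaving out an array therefore favours higher counts, and only 7464 to 7911 probes were tested without the arrays named next. Nothing about single arrays is read from these counts. The first count was 80 without the S2WT 1 h replicate 3, 104 without the S3WT 1 h replicate 2 and 77 without the S3WT 0 h replicate 3, and it was 18 without centring. The second count was 53 without the S2WT 1 h replicate 3, 50 without the S3WT 1 h replicate 2, 62 without the S3WT 1 h replicate 3, 50 without the S2WT 0 h replicate 2, 54 without the S2WT 0 h replicate 3, 65 without the S3WT 0 h replicate 1 and 53 without the S3WT 0 h replicate 3, and it was 57 without centring.

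Among the inhibitors within the pathway, Tgif1 had log2 ratios of 1.05, 0.99 and 1.14 on the S2WT 1 h arrays, against 0.175, -0.065 and -0.22 on the S2WT 0 h arrays. In S3WT they were 1.10, 0.69 and 0.81 at 1 h, against 0.0050, 0.23 and -0.011 at 0 h. The groups did not overlap in either line, and the change of 0.94 ± 0.12 (SE) was a 1.92-fold increase with an adjusted p of 0.0859 by limma. Tgif1 passed when the group means were fitted over all 74 arrays (limma, adjusted p = 0.00627), with array weights (0.0185) and among the probes measured on all 12 arrays (0.0320); its adjusted p over all alternatives ran from 0.00627 to 0.542. The second Tgif1 probe showed a change of 0.42 ± 0.12 (limma, adjusted p = 0.915), and its arrays overlapped in at least 1 line. With the group means over all 74 arrays its adjusted p was 0.902 by limma.

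Skil, which encodes the SnoN co-repressor of Smads, lay at 0.57, 0.25 and 0.74 on the S2WT 1 h arrays and at -0.29, 0.067 and -0.0030 at 0 h. In S3WT its ratios were 0.96, 0.57 and 0.325 at 1 h and -0.56, -0.0060 and -0.058 at 0 h. Again no 1 h array fell within the 0 h range. The change of 0.71 ± 0.16 had an adjusted p of 0.883 by limma; Skil passed only against the pooled 0 h arrays (limma, adjusted p = 0.0187). For Smad7, the inhibitory Smad that blocks the receptor, the change was 0.45 ± 0.13 (limma, adjusted p = 0.915). Its ratios were 0.72, 0.69 and 0.31 at 1 h and 0.0020, 0.14 and -0.094 at 0 h in S2WT, which did not overlap, and 0.40, -0.068 and 0.325 at 1 h and -0.23, -0.029 and -0.11 at 0 h in S3WT, where 1 array at 1 h lay within the 0 h range. Ski, the other co-repressor of this family, had 3 probes with changes of 0.13 to 0.32.

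Over the list of Smads and their regulators, 15 of 21 probes (12 genes) were above 0 with a median change of 0.11, against 51.6% above 0 and a median of 0.0104 over all tested probes; none passed. Without centring the list had 11 probes above 0 and a median of 0.0065, with -0.0964 for all probes. Smad3 had changes of 0.44 and 0.07 on its tested probes, Smad4, the common partner of the receptor-activated Smads, 0.76 ± 0.57, and Smad1 and Smad5, which act in the BMP branch, 0.05 and 0.06. The receptors and co-receptors stayed near 0: 4 of 9 probes were above 0, with a median of -0.05 (3 of 9 and -0.15 without centring) and changes from -0.25 to 0.20. Tgfbr1, the type I receptor, had 0.18 ± 0.23 and the co-receptor Tgfbr3 -0.19 ± 0.13 on the probe with its smallest p. The ligand list was represented by Tgfb2 (0.0021 ± 0.23) and by 3 probes of Bmp1 (-0.06 to 0.03).

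**Figure D1:**
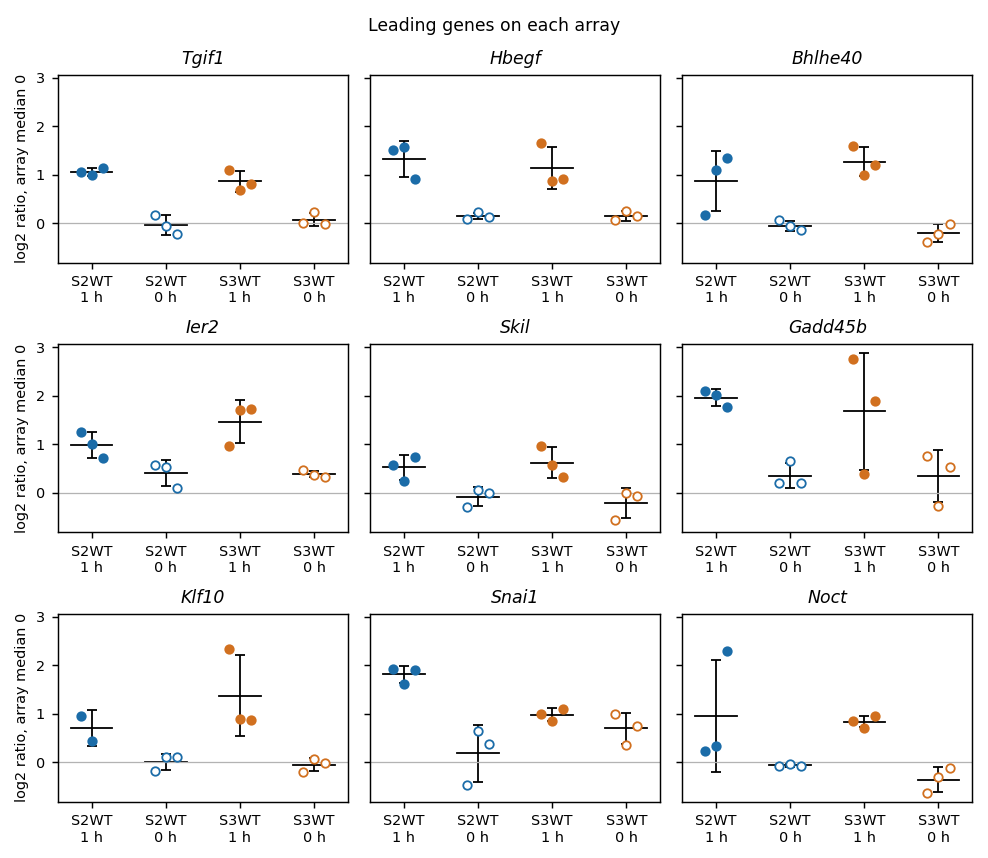
Log2 ratios of 9 genes on each of the 12 arrays, by line and time (1 h filled, 0 h open); bars are the mean and the SD of the group, 3 arrays each except Klf10 in S2WT at 1 h, with 2. Tgif1, Hbegf, Bhlhe40, Ier2, Skil, Klf10 and Noct have every 1 h array above every 0 h array of their line, while Gadd45b and Snai1 overlap in S3WT.

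Genes induced by TGF-β in other work formed the list with the highest median change. Of 13 probes (12 of 21 listed genes tested), 12 were above 0 with a median of 0.71, against 0.0104 for all tested probes. An unadjusted p under 0.05 by limma with a higher 1 h value was reached by 9 probes of 8 genes, compared with 2.26% of all tested probes. Free of overlap in both lines were 5 probes, compared with 0.603%. The list was written with earlier results of these data known, so these counts do not support its direction independently.

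Hbegf was measured at 1.51, 1.58 and 0.91 on the S2WT 1 h arrays, against 0.099, 0.225 and 0.125 at 0 h. The S3WT ratios were 1.65, 0.87 and 0.91 at 1 h, against 0.060, 0.25 and 0.15 at 0 h. All 1 h values were well clear of the 0 h values, and the change of 1.09 ± 0.17 had an adjusted p of 0.132 by limma; it was 0.000282 against the pooled 0 h arrays and 0.404 with the group means over all 74 arrays. EGFR (Egfr), the receptor Hbegf signals through, had a change of -0.15 ± 0.16 and Erbb3 -0.03 ± 0.10.

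Bhlhe40 showed 0.18, 1.10 and 1.35 in S2WT at 1 h, against 0.065, -0.063 and -0.14 at 0 h, and 1.59, 1.00 and 1.21 in S3WT at 1 h, against -0.39, -0.21 and -0.016 at 0 h. The S2WT 1 h replicate 1, at 0.18, lay near the 0 h arrays. Over both lines the change was 1.20 ± 0.21 (limma, adjusted p = 0.314), and without that array it was 1.38, which passed (limma, adjusted p = 0.0113). Bhlhe40 also rose in the fit over all 74 arrays (limma, adjusted p = 0.0249).

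Gadd45b encodes a stress-induced protein that activates p38 MAP kinase signalling. Its ratios were 2.10, 2.01 and 1.77 in S2WT at 1 h, against 0.21, 0.65 and 0.21 at 0 h, and 2.77, 0.38 and 1.90 in S3WT at 1 h, against 0.76, -0.27 and 0.54 at 0 h. The S3WT 1 h replicate 2 lay between the 0 h arrays. This was the highest change among the induced genes, 1.47 ± 0.35, and its adjusted p was 0.915 by limma with the 12 arrays and 0.0114 with the spread of all 74. Without the S3WT 1 h replicate 2 the change of Gadd45b was 1.78, with an adjusted p of 0.0712 by limma.

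Klf10, a zinc-finger factor known as the TGF-β-inducible early gene, had 0.97 and 0.44 on 2 S2WT arrays at 1 h and no value on the other, against -0.18, 0.11 and 0.10 at 0 h. Its S3WT ratios were 2.34, 0.90 and 0.88 at 1 h, against -0.19, 0.068 and -0.019 at 0 h. It was higher by 1.10 ± 0.29 (limma, adjusted p = 0.915, and 0.0378 over all 74 arrays). Ccn1, a matricellular protein, and Hmox1, heme oxygenase 1, had changes of 0.48 ± 0.33 and 0.51 ± 0.28 with overlapping arrays. The matrix protein gene Tgfbi had -0.17 ± 0.13, and Cdkn1a, the p21 inhibitor of cyclin-dependent kinases, 0.07 ± 0.12, which was -0.03 without centring.

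**Figure D2:**
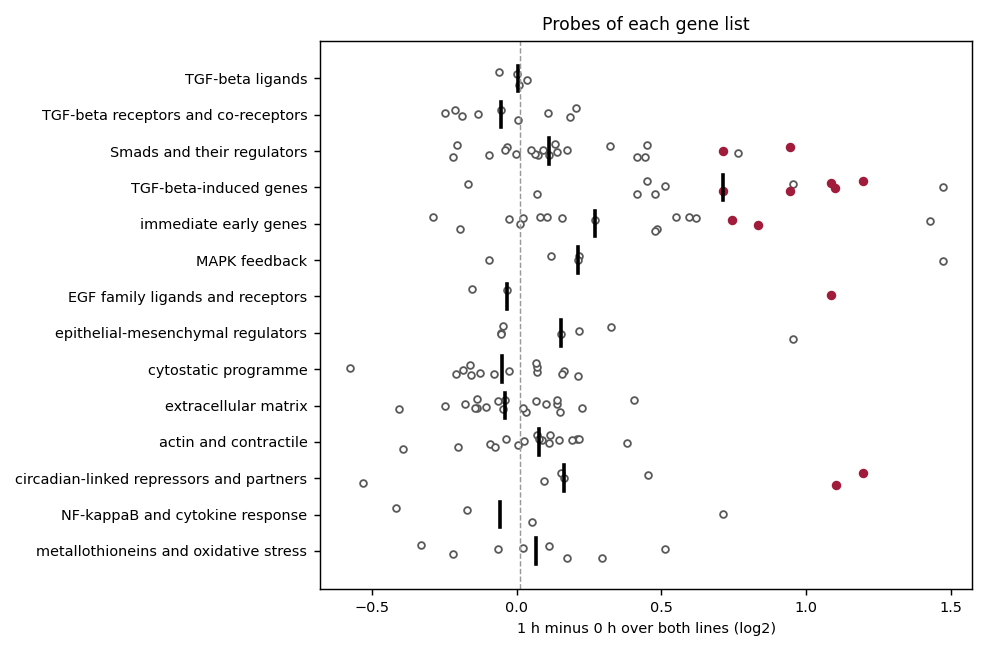
Log2 change (1 h minus 0 h over both lines) of every tested probe in 14 gene lists; filled points have all 1 h arrays above all 0 h arrays of their line in both lines, black bars are list medians and the dashed line is the median of all tested probes. The TGF-β-induced list has a median of 0.71 and the immediate early list 0.27, while receptors, extracellular matrix and cytostatic genes lie around 0.

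Immediate early genes, which are transcribed without new protein synthesis after many stimuli, were mostly above 0. Of 17 probes (14 genes), 14 had a positive change, compared with 51.6% of all tested probes, with a median of 0.27 (0.17 and 10 probes above 0 without centring). An unadjusted p under 0.05 by limma with a higher 1 h value was reached by 5 probes of 3 genes, compared with 2.26% of all tested probes. Free of overlap were 2 probes, compared with 0.603%, and none passed. This list too was written with earlier results of these data known, so these counts do not support its direction independently. Ier2, a nuclear protein of this class, lay at 1.26, 1.00 and 0.72 in S2WT at 1 h, against 0.58, 0.535 and 0.10 at 0 h, and at 0.96, 1.71 and 1.73 in S3WT at 1 h, against 0.47, 0.37 and 0.33 at 0 h. Its self-hybridisation arrays were themselves all above 0, and the change over them was 0.83 ± 0.18 (limma, adjusted p = 0.883).

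Nr4a1, an orphan nuclear receptor, was read by 2 probes with changes of 0.74 ± 0.20 and 1.43 ± 0.44. On the first, S3WT ratios were 1.31, 1.105 and 1.60 at 1 h, against 0.38 and 0.11 at 0 h, and S2WT ratios 0.50, 0.16 and 0.75 at 1 h, against 0.090 and 0.064 at 0 h. Btg2, an anti-proliferative gene, had changes of 0.97 and 0.87 in S3WT and of 0.22 and 0.10 in S2WT on its 2 probes; the difference between the lines did not pass (limma, adjusted p = 0.948 on both). On the second Nr4a1 probe the changes were 1.25 in S2WT and 1.57 in S3WT. Within S3WT, 6 probes rose when tested against the pooled 0 h arrays, Nr4a1 and Btg2 among them (limma, adjusted p = 0.000789 and 0.0250). The others were Bhlhe40, Hbegf, Klf10 and Pde3b, the last named after its values were seen. The AP-1 subunits Fos and Fosl2 had changes of -0.20 ± 0.44 and -0.03 ± 0.31, and the mRNA-decay factor Zfp36 0.62 ± 0.34.

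Of the circadian-linked list, 6 of 7 probes (5 genes) were above 0, compared with 51.6% of all tested probes, with a median of 0.16 (0.06 without centring). Bhlhe40, also in the induced list, and Noct had no overlap in either line, compared with 0.603% of all tested probes. Rora had -0.53 ± 0.56 and 0.16 ± 0.21 on its 2 probes, and Cry1 0.15 ± 0.17. This list too was written with earlier results of these data known, so these counts do not support its direction independently. Noct, the nocturnin phosphatase, lay at 0.23, 0.35 and 2.29 in S2WT at 1 h, against -0.075, -0.027 and -0.077 at 0 h, and at 0.85, 0.715 and 0.95 in S3WT at 1 h, against -0.63, -0.30 and -0.12 at 0 h. One S2WT array was far above the other 2, and the change was 1.10 ± 0.31 (limma, adjusted p = 0.915), or 0.82 without that array (S2WT 1 h replicate 3). Per1, a core clock repressor, had changes of 0.45 ± 0.14 and 0.10 ± 0.25 on its 2 probes.

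Promoters are shown for 4 of these genes to set their sequences beside their higher 1 h values. They were chosen after their values were seen. In the induced, immediate early and circadian lists, 12 genes had a higher 1 h value and an unadjusted p under 0.01 by limma. Of these, 6 had a promoter in the RefSeq table used, with a chromosome left out by rule, so genes with a smaller p can be missing. The 4 promoters printed are those with the smallest p among these 6 genes. Each is the 250 bases before the gene start (GRCm38.p6, 5′ to 3′ on the gene's strand), with motif letters in capitals; Tgif1 has 5 starts in the table, and the outermost is shown.
Tgif1, chr17:70853533-70853782, - strand: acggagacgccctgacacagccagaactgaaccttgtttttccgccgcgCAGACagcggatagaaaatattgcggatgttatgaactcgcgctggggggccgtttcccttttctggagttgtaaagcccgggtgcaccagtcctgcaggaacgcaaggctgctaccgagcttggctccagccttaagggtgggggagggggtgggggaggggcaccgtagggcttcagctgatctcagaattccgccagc
Gadd45b, chr10:80929841-80930090, + strand: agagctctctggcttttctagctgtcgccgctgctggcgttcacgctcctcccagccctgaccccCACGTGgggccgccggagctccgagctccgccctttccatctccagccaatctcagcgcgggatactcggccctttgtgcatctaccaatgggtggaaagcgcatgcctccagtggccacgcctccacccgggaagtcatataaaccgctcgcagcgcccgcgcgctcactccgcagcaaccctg
Noct, chr3:51224197-51224446, + strand: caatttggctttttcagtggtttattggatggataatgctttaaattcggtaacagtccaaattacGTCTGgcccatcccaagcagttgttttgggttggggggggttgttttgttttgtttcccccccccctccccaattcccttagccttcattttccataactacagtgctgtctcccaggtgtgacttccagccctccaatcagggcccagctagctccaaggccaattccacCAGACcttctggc
Nr4a1, chr15:101266596-101266845, + strand: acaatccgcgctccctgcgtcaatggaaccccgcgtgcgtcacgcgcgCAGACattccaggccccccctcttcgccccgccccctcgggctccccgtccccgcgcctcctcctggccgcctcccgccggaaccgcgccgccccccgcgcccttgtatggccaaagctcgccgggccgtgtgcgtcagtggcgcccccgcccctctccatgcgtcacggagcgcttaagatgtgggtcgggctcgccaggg
Motifs were searched for on both strands. The short Smad box was searched as CAGAC. Its palindromic form was GTCTAGAC. The AP-1 site was TGACTCA. The cAMP response element was TGACGTCA. An E-box, the kind of site that Bhlhe40 binds, was CACGTG. None of these motifs contains another. The CAGAC box was found in 4 of the 6 genes at the outermost start (Tgif1, Noct, Nr4a1 and Per1), and 42.2% of all 32851 promoters of the same length hold it. CACGTG occurred in Gadd45b and Per1, against 6.02% of all promoters. The palindromic Smad box, the AP-1 site and the cAMP response element were not found in the printed promoters; 0.167%, 4.46% and 1.55% of all promoters hold them.

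Among the leading rises outside the lists was Csnk2a2, a catalytic subunit of casein kinase 2, with a change of 0.96 ± 0.22 on 1 probe and of -0.02 to 0.05 on the other 3. Its S2WT 1 h replicate 2 was at -0.012 while the other five 1 h arrays lay between 1.09 and 1.505. Without that array the probe was called (limma, adjusted p = 0.0142, change 1.17). The low value was not confined to that array. On the S2WT arrays titled 2 h and 4 h, replicate 2 was at -0.192 and -0.091. The other S2WT replicates were at 0.818 and 1.046 at 2 h and at 0.58 and 0.885 at 4 h. In S2KO, replicate 2 was also low, at 0.091, -0.425 and -0.131 at 1, 2 and 4 h. The other S2KO replicates lay between 0.857 and 1.757 at those times. In S3WT, replicate 2 was at 1.253 at 1 h. The cause was not tested. Jarid2, a component of Polycomb repressive complex 2, was higher by 0.81 ± 0.20 with no overlap, from 2 S3WT arrays at 1 h. Igdcc3, a transmembrane immunoglobulin protein, showed 1.28 ± 0.31, and Pwwp2b, a chromatin protein, 0.61 ± 0.16.

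Lrig3, a transmembrane protein with leucine-rich repeats, was picked out after its values were seen, because it was called over all 74 arrays (limma, adjusted p = 0.0414). Its S2WT ratios at 1 h were 0.87 and 4.94 with no value on the remaining array, against 0.29, 0.245 and -0.20 at 0 h, so that the S2WT mean behind the change of 1.59 ± 0.67 rests on arrays far apart. Without the S2WT 1 h replicate 3, at 4.94, too few values were left to test it. Its S3WT ratios were 0.30, 0.037 and 0.57 at 1 h, against -0.215, -0.68 and -0.092 at 0 h. Probe 7737, which has no gene name in the annotation used, was higher by 0.83 ± 0.13 and was called in 3 of the alternatives.

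Lower values were more scattered and none was called in any fit over both lines. Meox2, a mesodermal homeobox factor, lay at -0.35, -0.86 and -1.015 in S2WT at 1 h, against 0.053 and 0.80 at 0 h, and at -0.91, -2.18 and -1.25 in S3WT at 1 h, against -0.69, -0.285 and -0.875 at 0 h. Its change was -0.98 ± 0.26 (limma, adjusted p = 0.915). Cspp1, a centrosome and spindle protein, had -1.41 ± 0.38, the T-box factor Tbx6 -0.93 ± 0.26, the protease gene Klk11 -1.09 ± 0.30 and Hamp, the iron hormone hepcidin, -1.36 ± 0.35. Meox2, Cspp1, Klk11, Mybpc2 and Stx17 had no overlap in either line, compared with 0.398% of all tested probes. Each of these genes had only 2 values in at least 1 group, which makes a lack of overlap easier. Tbx6 and Wnt3a, with 3 values in every group, overlapped in at least 1 line. For 3 genes other probes gave much smaller changes: Vac14, a scaffold of the lipid kinase PIKfyve, -1.83 against -0.15 and 0.01; Mybpc2, a myosin-binding protein of fast muscle, -1.20 against -0.06; and Ttc39a -1.16 against -0.23. Wnt3a, a secreted Wnt ligand, had -0.72 ± 0.22, and Stx17, an autophagosomal SNARE, -0.65 ± 0.20.

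Genes tied to later steps of the TGF-β response lay around 0 at 1 h on the centred scale, on which 51.6% of all tested probes were above 0. Extracellular matrix genes had 9 of 19 probes above 0 with a median of -0.04 (5 of 19 and -0.14 without centring): Col1a1 had 0.41 ± 0.26, Col3a1 -0.25 ± 0.11 on the probe with its smallest p, and Fn1, fibronectin, -0.14 ± 0.11. The cytostatic list had 6 of 14 probes above 0 with a median of -0.05 (3 of 14 and -0.16 without centring), with the cyclin-dependent kinase gene Cdk6 at -0.21 ± 0.11, the inhibitor Cdkn2c at -0.18 ± 0.11 and Myc at 0.16 ± 0.18. Actin and contractile genes had 12 of 17 above 0 and a median of 0.08, which was 7 of 17 and -0.03 without centring. In the list of epithelial-mesenchymal regulators 4 of 7 probes were above 0, and in that of MAP kinase feedback 4 of 5, where Gadd45b, also in the induced list, had the highest value. Nfkbia, the inhibitor of NF-κB, gave 0.71 ± 0.26 on 1 probe and -0.42 ± 0.29 on the other.

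The lines were compared gene by gene. No probe passed the test of the difference between S2WT and S3WT (0% called by limma, with 268 at an unadjusted p under 0.05, 3.23%, of which 1.47% of the tested probes were higher in S2WT and 1.76% in S3WT). None passed within S2WT by limma, where 427 (5.15%) had an unadjusted p under 0.05, 2.67% higher and 2.48% lower at 1 h. None passed within S3WT either, where 270 (3.26%) did, 1.82% higher and 1.44% lower. Among the listed genes the smallest p for the difference was at Snai1, the zinc-finger repressor of E-cadherin. Its ratios in S2WT were 1.93, 1.62 and 1.90 at 1 h, against -0.47, 0.65 and 0.37 at 0 h. In S3WT they were 1.00, 0.85 and 1.105 at 1 h, against 0.995, 0.36 and 0.76 at 0 h. The change was thus 1.63 ± 0.28 in S2WT and 0.28 ± 0.28 in S3WT, a difference of 1.35 ± 0.40 (limma, adjusted p = 0.948, unadjusted 0.00718), and the S3WT 0 h arrays were all above 0. With the group means over all 74 arrays, Snai1, Tgif1, Lrig3, Zcchc14 and Dancr rose in S2WT (0.0603% called), St3gal1 and Aass fell (0.0241%), and Ankrd27 rose in S3WT (0.0121%) by limma. Of these, Zcchc14, Dancr, St3gal1, Aass and Ankrd27 were named after their values were seen.

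**Figure D3:**
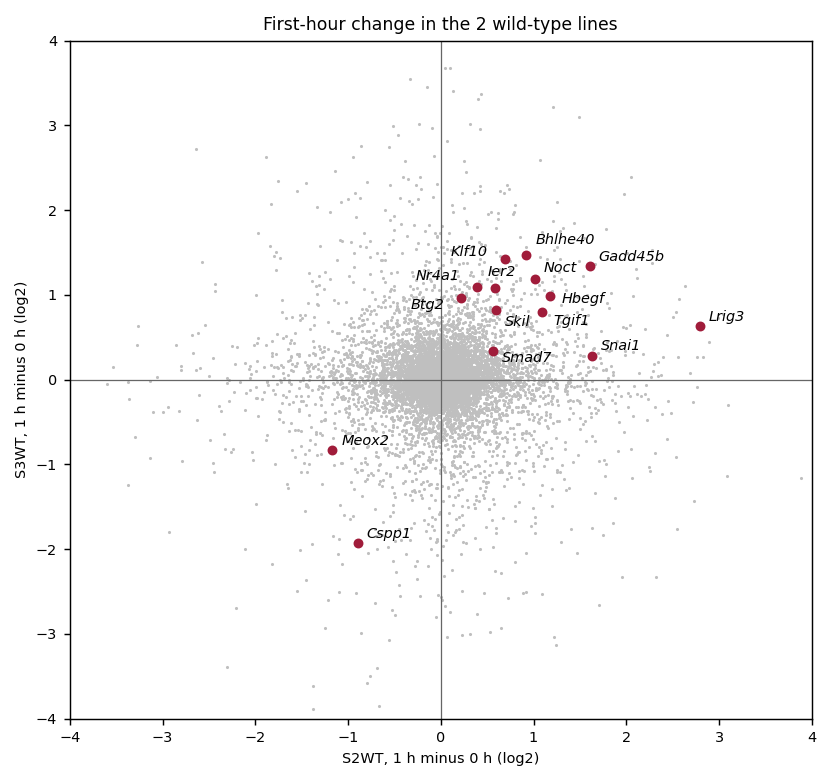
Change at 1 h in S2WT (x axis) and S3WT (y axis), both log2, for all 8292 tested probes (grey) and 15 named genes (red); 8 probes lie outside the axes. Klf10, Bhlhe40, Gadd45b, Noct, Hbegf and Tgif1 are higher in both lines, Snai1 and Lrig3 mainly along the S2WT axis, and Meox2 and Cspp1 are lower in both.

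Time courses place the first hour between 0.3 h and 4 h; means are given with the SD of 3 arrays unless stated. Over 0, 0.3, 1, 2 and 4 h, Tgif1 averaged -0.04 ± 0.20, 0.27 ± 0.19, 1.06 ± 0.07, 0.60 ± 0.23 and 0.30 ± 0.18 in S2WT. In S3WT the same times gave 0.07 ± 0.13, 0.15 ± 0.05, 0.87 ± 0.21, 0.90 ± 0.15 and 0.30 ± 0.47. The 1 h and 2 h means were the highest in both lines. Hbegf had its highest S2WT mean at the last time, with 0.15 ± 0.07, 0.26 ± 0.53, 1.33 ± 0.37, 1.84 ± 0.03 and 2.56 ± 0.20 over the 5 times. Its S3WT means over the last 3 times were 1.14 ± 0.44, 1.63 ± 0.69 and 1.61 ± 0.91. Gadd45b in S2WT already averaged 1.39 ± 0.39 at 0.3 h, ahead of 1.96 ± 0.17 at 1 h, whereas in S3WT it was 0.48 ± 0.25 and 1.68 ± 1.21. Ier2 in S3WT was at 1.62 ± 0.69 at 0.3 h and 1.47 ± 0.44 at 1 h, and in S2WT its highest mean, 1.68 ± 0.13, came at 2 h. Klf10 in S3WT was -0.01 ± 0.05 at 0.3 h, 1.38 ± 0.84 at 1 h and 0.04 ± 0.30 at 4 h. Skil was near 0 at 0.3 h in both lines and at 0.52 ± 0.25 in S2WT and 0.62 ± 0.32 in S3WT at 1 h. These courses are descriptions: all times share the 0 h arrays and the genes were named for the first hour, and another label field gives 2 h for the S2WT arrays titled 4 h.

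**Figure D4:**
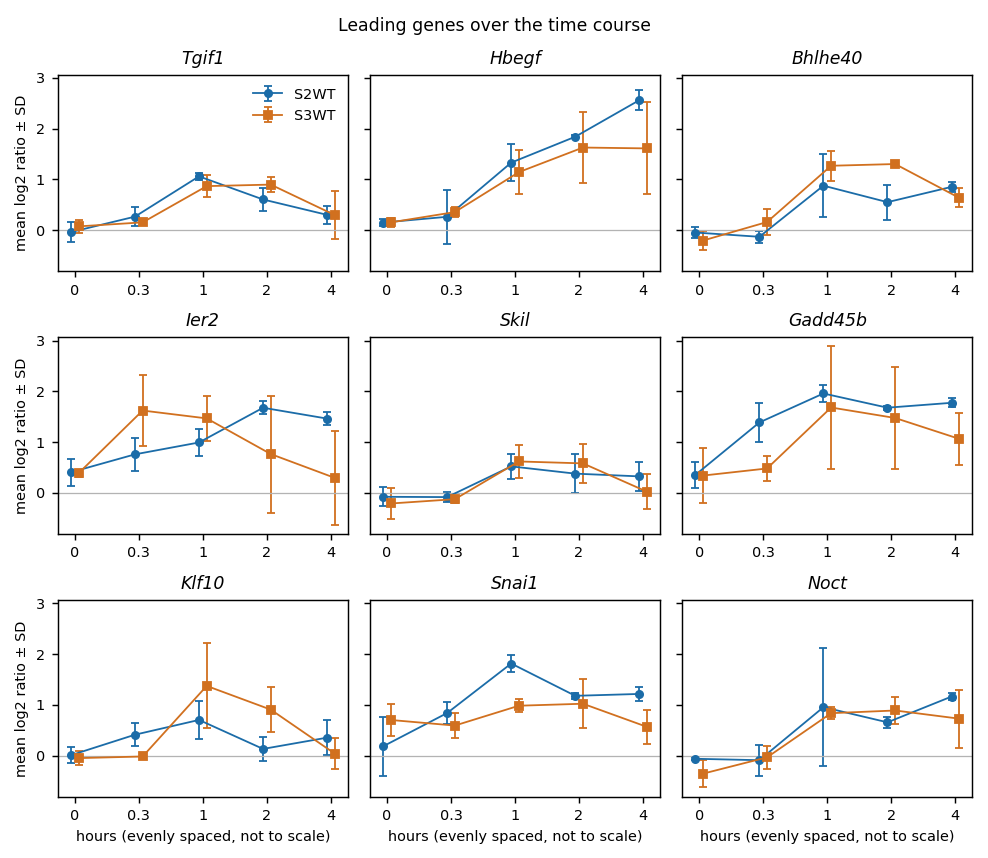
Mean log2 ratio ± SD of 9 genes at 0, 0.3, 1, 2 and 4 h in S2WT and S3WT, 3 arrays per point unless a value is missing; the hours are evenly spaced and not to scale. Tgif1 has its highest means at 1 and 2 h in both lines, and Hbegf in S2WT reaches 2.56 at 4 h.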

How the data were processed

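Of the 74 dual-channel mouse arrays, the 12 of S2WT and S3WT at 1 h and 0 h were compared. The values the authors deposited are log2 ratios of the 2 channels in a series table; per the labels used, dyes, scanner, background correction, normalization and signal stay unknown. Precision is limited by the number of arrays. Values of 16.6 and above, at the log2 of a ratio of 100000, were set to missing (93 on 1 h and 127 on 0 h arrays), and each array was centred on its median, as deposited -0.589 to 0.089. In R 4.3.3 with limma 3.58.1, lmFit and eBayes fitted the line plus 1 h against 0 h, and 4 group means for each line and their difference; errors beside changes are standard errors. A probe needed 2 values in each group. Benjamini-Hochberg adjustment ran over the 8292 probes tested, with 0.05 as the threshold. The code was tested on simulated data. Of the probes, 7348 had 1 gene symbol, 399 several and 1229 none, and symbols were updated through gene IDs for 7274. Named were the 10 probes with the smallest p in each direction, since none was called, and up to 4 genes per list, with all measured members of the TGF-β lists summarised. The members, lists and rules were chosen with earlier results of these data known. Alternatives changed centring, scaling, missing values, reference arrays, array weights, moderation, the replicate block, probe averaging and single arrays. Promoters came from RefSeq.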

Additional observations from a re-analysis of the deposited data

Results flagged for a closer look

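Arrays of S2KO, S3KO and U0126 at 1 h and 0 h were outside the comparison. The last is named after a MEK inhibitor and set against S2WT in its titles, so it is not a further cell line. For short, all 3 are called lines here. Described genes whose arrays did not overlap in either wild-type line numbered 16. Of these, 6 were also free of overlap in the same direction in S2KO, 3 in U0126 and 2 in S3KO. S3KO has 2 arrays at 1 h. Not all of the 16 were compared in each line: Klk11 had too few values in S2KO, and Igdcc3, Meox2 and Cspp1 in S3KO. The share of all tested probes free of overlap was not counted in these lines. The counts therefore have no background rate beside them, and no excess is read from them. No test was run, and differences between lines were not tested.

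In S2KO the log2 changes (1 h minus 0 h) of the genes free of overlap were 1.354 for Hbegf, 1.114 for Klf10, 0.759 for Skil, 0.677 for Jarid2, 0.676 for Noct and 0.408 for Lrig3. The others of the 16 measured there overlapped. Tgif1 had 0.016 (0.316 on its second probe), Ier2 0.203, Bhlhe40 0.531, Nr4a1 0.927, Meox2 -0.158 and Stx17 -0.247. Igdcc3 (-0.293), Cspp1 (1.353) and Mybpc2 (0.623) were opposite in sign to the wild-type lines. In U0126 the changes of the genes free of overlap were 0.744 for Tgif1, 1.072 for Igdcc3 and 0.597 for Lrig3. In S3KO they were 0.263 for Skil and -1.692 for Stx17, which was measured on 2 arrays at each time. In the same line Hbegf had -0.346 and Tgif1 -0.240 on its first probe, opposite in sign to the wild-type lines, and 0.027 on the second Tgif1 probe.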

How the results depend on the processing

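Over both wild-type lines, 0 probes were called higher or lower with the 12 arrays. The count of higher probes was 6 with the group means over all 74 arrays, 4 against the pooled 0 h arrays, 4 with array weights and 1 among probes measured on all 12 arrays, and 0 to 1 when single arrays were left out (Bhlhe40 without the S2WT 1 h replicate 1, Csnk2a2 without the S2WT 1 h replicate 2); lower probes stayed at 0. In S2WT 5 were higher and 2 lower over all 74 arrays, 3 higher against the pooled 0 h arrays, and 0 to 3 higher and 0 to 1 lower without single arrays. In S3WT 6 were higher against the pooled 0 h arrays, 1 over all 74 arrays and 0 to 1 without single arrays; with values at the ceiling kept, 1 was lower and 1 differed between the lines (Cd86 in both cases). Probes free of overlap (counted in settings chosen after seeing the data) were 50 higher (0.603%) and 33 lower (0.398%) of 8292. Without centring there were 18 and 57. Among the 5594 probes measured on all 12 arrays there were 24 and 13. With 0.3 h arrays in place of 0 h, 41 were higher and 19 lower of 8201. Without single arrays 56 to 104 were higher and 41 to 65 lower, of 7402 to 7911 tested. A group of 2 values, after an array is left out or where a value is missing, is more easily free of overlap than a group of 3.

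Of 47 described genes, 33 kept their direction in every alternative run. Reversed were, with 0.3 h arrays in place of 0 h, Igdcc3 (-0.0622), Per1 (-0.2947), Col1a1 (-0.0653), Cdkn1a (-0.0345), Mybpc2 (0.0581), Tgfbr3 (0.0178), Acvr1b (0.1177) and Egfr (0.0994); with 1 h arrays against 0, Col3a1 (0.0953), Cdkn2c (0.0927), Acvr1b (0.0895), Fn1 (0.3372), Eng (0.1140) and Tgfbr1 (-0.1198); against the pooled 0 h arrays, Cdk6 (0.3465); without centring, Cdkn1a (-0.0337); and without the S3WT 0 h replicate 2, Eng (0.1138, with -0.4203 as the lowest value without another array). The cause was not tested. Replicate numbers were not used as pairs in the main fit. Same-numbered deviations correlated weakly, at -0.0426 to 0.0984 in 6 pairs, but 9 of 12 arrays correlated best with their own number. The replicate block gave 0 calls, with 335 probes at an unadjusted p under 0.05 by limma, against 311 without the block. Whether the numbers pair the arrays was not settled. Signal over background is unknown, so dim probes could not be told from bright ones.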
